A study of Mus musculus with 9 samples.

Results

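The nuclear genes for respiratory complexes II to V and for cytochrome c were followed in cells labelled as hematopoietic stem cells (HSCs), the marrow cells that sustain blood formation. Genes were chosen by symbol, as those starting with Uqcr, Atp5 or Cox followed by a digit from 4 to 8, plus Sdha, Sdhb, Sdhc, Sdhd, Cyc1 and Cycs, which gave 51 of the 23317 genes in the deposited count table. They comprised 4 genes of complex II, 9 of complex III, the cytochrome c gene Cycs, 18 genes of complex IV, 17 of complex V (ATP synthase) and 2 entries whose symbols mark pseudogenes. This rule on symbols used no expression value, but the genes and lists detailed below were chosen with earlier results of these data known.

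Complexes II, III and IV pass electrons from succinate and ubiquinol to oxygen, and complexes III and IV pump protons across the inner mitochondrial membrane. ATP synthase uses the resulting gradient to make ATP, turning a ring in the membrane against a catalytic head called F1. Complex II is encoded by nuclear genes alone, whereas complexes III, IV and V also hold subunits from the mitochondrial genome. HSCs are known for a low reliance on oxidative phosphorylation when quiescent.

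The study compared 3 groups of wild-type mice with 3 RNA-seq libraries each: cells from young mice, from old mice, and from old mice treated with ABC294640, an inhibitor of sphingosine kinase 2, the enzyme that phosphorylates sphingosine. The protocols name ages of 2 to 4 and 20 to 24 months, which were assigned to young and old by wording. Marrow was taken from femora and tibiae, 1500 sorted cells went into each library, and complementary DNA from polyadenylated RNA was amplified with 12 PCR cycles. Which surface markers were sorted on, and how, how long and at which dose the inhibitor was given, is not stated in the sources used here. Nor is it stated that replicates are different animals, so p-values measure the spread between these samples alone and that spread may be technical.

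Library totals lay between 16663445 and 23254115 counts, of which the 51 genes took 1.72% to 2.02%. All 12 HSC markers on the list used had counts, but at a summed level of 591 ± 5.95 CPM (counts scaled to a common library size; SD, n = 3 here and below) in young, 487 ± 5.30 in old and 497 ± 1.59 in treated old libraries. Among them, Procr was at 3.89 ± 0.203, 2.54 ± 0.350 and 3.19 ± 0.299 CPM. The 12 granulocyte and monocyte genes, led by Mpo and Elane, summed to 37340.2 ± 2280.1, 54267.5 ± 1694.5 and 52943.9 ± 658 CPM, and the 10 erythroid genes to 1822 ± 19.7, 1025 ± 2.72 and 1131 ± 4.46. With age 9 of these 12 rose and 2 fell, against 19.6% and 19.8% of all genes. The 2 were Csf1r (log2 change -0.70 ± 0.10, adjusted p = 2.04e-05) and Ly6c2 (-0.55 ± 0.042, adjusted p = 1.92e-09). Of the 10 erythroid genes 9 fell and 1, Hbb-bt, rose (0.57 ± 0.12, adjusted p = 0.000878). B and plasma cell genes (8) summed to 359 ± 21.5, 725 ± 45.6 and 652 ± 14.4 CPM, megakaryocyte genes (6) to 467 ± 22.4, 243 ± 15.8 and 301 ± 8.32, T and NK genes (6) to 1389 ± 81.0, 1832 ± 86.3 and 1983 ± 83.6, mostly Nkg7, and stromal and endothelial genes (6) to 43.9 ± 3.62, 37.8 ± 3.70 and 39.4 ± 0.689. The B and plasma cell sum was mostly Igkc, at 165 ± 11.7, 533 ± 46.0 and 470 ± 14.8 CPM. Ighm went the other way with age, at 95.7 ± 6.71, 60.6 ± 0.763 and 59.4 ± 2.00 CPM. The median log2 change with age over the 7 tested genes of that list was -0.1. The Y-linked genes Ddx3y, Eif2s3y, Kdm5d and Uty summed to 9.34 ± 1.02 CPM in young, 135 ± 6.73 in old and 135 ± 11.6 in treated libraries. Marker make-up and Y-linked transcripts thus differed between young and old libraries. Age and the apparent sex of the mice differ together, so changes called age changes here cannot be told apart from changes with sex. This also holds for treated old against young libraries and for genes on the X chromosome such as Cox7b. Between old and treated libraries the summed levels did not overlap for the HSC, erythroid, megakaryocyte, T and NK lists, which were higher in treated libraries, or for the B and plasma cell list, which was lower. The ranges were 225 to 253 CPM in old and 292 to 309 in treated libraries for megakaryocyte genes, and 1023 to 1028 and 1126 to 1134 for erythroid genes. With the inhibitor Pf4, a platelet chemokine gene, rose by 0.37 ± 0.053 on the log2 scale (adjusted p = 0.000631), Car1, an erythroid carbonic anhydrase gene, rose by 0.19 ± 0.042 (adjusted p = 0.0255) and Jchain, the antibody joining chain gene, fell by 0.28 ± 0.058 (adjusted p = 0.0164). Each was the 1 gene of its list with an adjusted p under 0.05, of 6, 10 and 7 tested, against 0.766% higher and 0.429% lower over all genes. None of the 12 HSC markers passed that threshold or separated old from treated libraries without overlap. Their log2 changes ran from -0.48 (Fgd5) to 0.34 (Procr), with a median of 0.03. The part of these shifts in the age and inhibitor results was not tested. In RNA pooled from many cells, fewer cells of a type and less RNA per cell cannot be told apart.

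Of the 51 genes, 45 passed the filter on low counts and were tested, and all 45 had counts in every library. The 6 others were Atp5g2 and Atp5k-ps4, both listed at 0 in all 9 libraries, and Cox5b-ps, Cox7b2, Cox8b and Cox8c, none of which exceeded 0.490 CPM in any library. Levels between genes were compared as CPM per kilobase, with the median length of selected annotated transcripts of each gene (GENCODE release M21, GRCm38). In young libraries the highest level per kilobase was that of Cox4i1 (1458), a complex IV subunit, followed by Cox8a (1288), also of complex IV, and Uqcr11 (1212), a small complex III subunit. Among the tested genes apart from tissue isoforms, the lowest was Sdha (32.7), which encodes the flavoprotein of complex II. The other complex II genes stood at 373 (Sdhb), 70.9 (Sdhc) and 394 (Sdhd) CPM per kilobase.

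The summed level of the 51 genes was 18722 ± 707 CPM in young, 18331 ± 895 in old and 19642 ± 333 in treated old libraries. The young and old ranges overlapped, and the treated libraries all lay above the old ones. The direction of change depended on the gene, as the plot of all changes shows. With age, 7 of the 45 tested genes rose and 14 fell, against 19.6% higher and 19.8% lower over all 14227 genes tested. The median log2 change was -0.05 for the 45 genes and -0.03 for all genes. With library totals in place of TMM scaling, 5 rose and 21 fell, against 13.1% and 27.6% of all genes, whose median moved to -0.12. The rises of Cyc1 and Sdhd were then not called. With the inhibitor, 9 rose and none fell, against 0.766% higher and 0.429% lower over all genes, with a median of 0.10 for the 45 genes and 0.00 for all. By unadjusted p under 0.05, edgeR gave 19 higher and 0 lower, and DESeq2 with adjustment gave 10 and 0. Calls are edgeR quasi-likelihood tests on 14227 genes with a Benjamini-Hochberg adjusted p under 0.05, and changes are log2 fold changes ± standard error. The old libraries serve in both comparisons, so a low value in them lowers the first and raises the second.

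**Figure D1:**
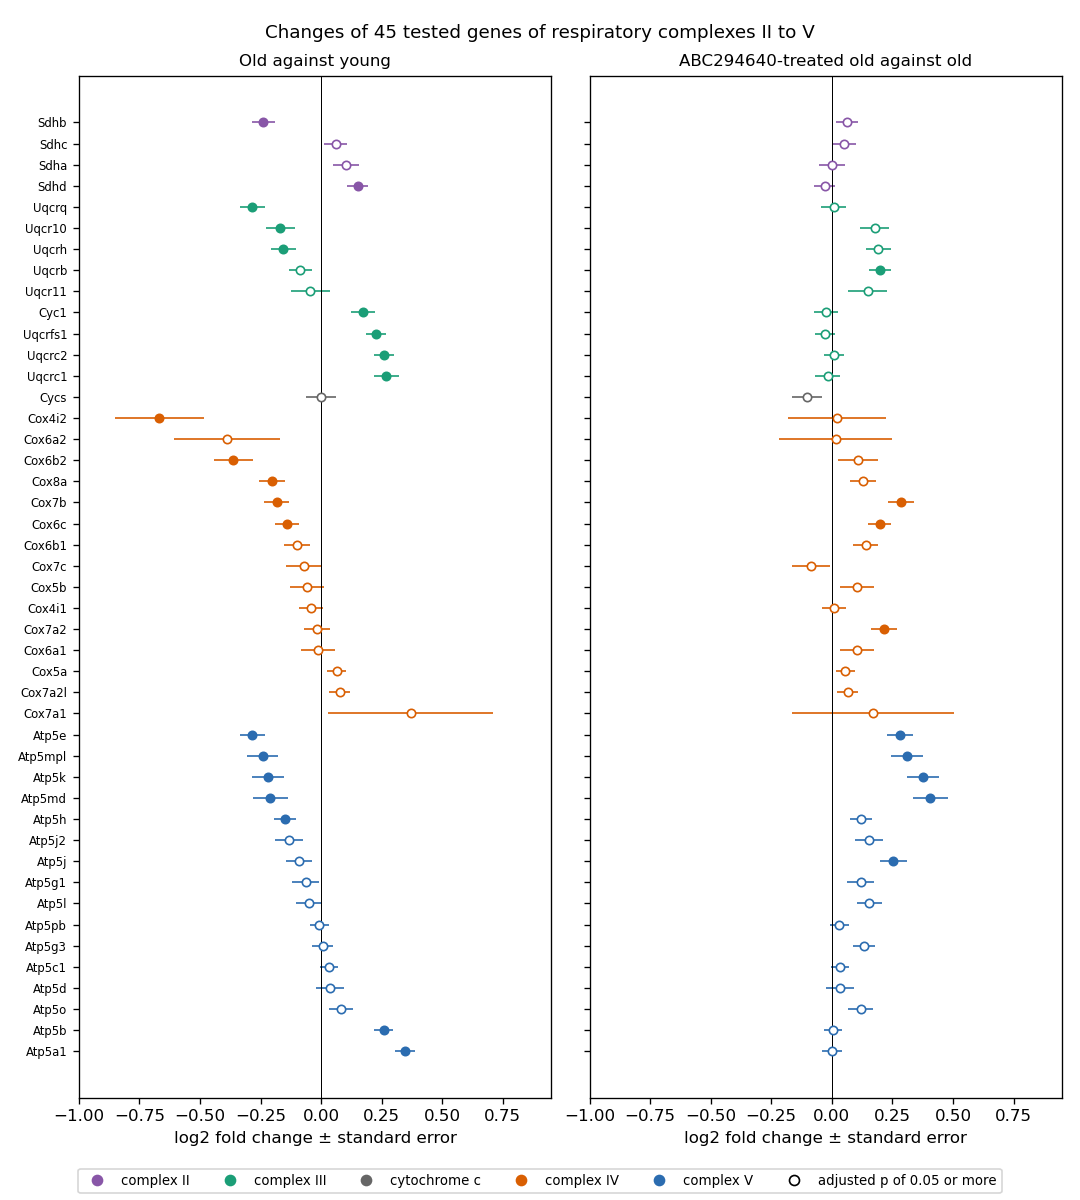
Log2 fold changes (x axis, ± standard error) of the 45 tested genes, sorted by complex and by age effect, for old against young and for treated old against old libraries (n = 3 a group). Filled points had an adjusted p under 0.05 (7 higher and 14 lower on the left, 9 higher on the right), and complexes III and V hold filled points on both sides of 0 on the left.

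Promoters from RefSeq (GRCm38.p6) were found for 37 of the 51 genes, as the 250 bases before the transcription start. The promoters of 4 complex V genes are shown because these genes carry the contrast within ATP synthase described below: Atp5b rose with age, while Atp5e, Atp5k and Atp5md fell with age and rose with the inhibitor. They lie at chr10:128083057-128083306 (Atp5b, plus strand), chr2:174464102-174464351 (Atp5e, minus strand), chr5:108434400-108434649 (Atp5k, minus strand) and chr19:47090648-47090897 (Atp5md, minus strand). Capitals mark CCAAT on either strand (ATTGG when read on the other strand), the box bound by NF-Y, and GCGCATGC (GCATGCGC on the other strand), from the palindrome bound by NRF1, a regulator of respiratory genes.
Atp5b: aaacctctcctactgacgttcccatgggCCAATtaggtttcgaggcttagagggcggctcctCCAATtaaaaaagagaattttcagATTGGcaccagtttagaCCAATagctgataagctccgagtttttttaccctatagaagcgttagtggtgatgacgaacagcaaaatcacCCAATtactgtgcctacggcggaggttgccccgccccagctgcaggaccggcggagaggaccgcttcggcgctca
Atp5e: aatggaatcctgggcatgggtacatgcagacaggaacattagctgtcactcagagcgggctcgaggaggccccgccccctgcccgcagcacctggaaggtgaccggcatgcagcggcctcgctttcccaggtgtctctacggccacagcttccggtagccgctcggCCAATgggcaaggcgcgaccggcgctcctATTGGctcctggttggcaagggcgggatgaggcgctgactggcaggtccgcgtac
Atp5k: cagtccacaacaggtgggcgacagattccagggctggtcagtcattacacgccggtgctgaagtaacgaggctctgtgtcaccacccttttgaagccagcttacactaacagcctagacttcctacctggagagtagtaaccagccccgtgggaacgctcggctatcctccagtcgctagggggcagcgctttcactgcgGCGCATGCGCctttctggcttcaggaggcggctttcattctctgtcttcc
Atp5md: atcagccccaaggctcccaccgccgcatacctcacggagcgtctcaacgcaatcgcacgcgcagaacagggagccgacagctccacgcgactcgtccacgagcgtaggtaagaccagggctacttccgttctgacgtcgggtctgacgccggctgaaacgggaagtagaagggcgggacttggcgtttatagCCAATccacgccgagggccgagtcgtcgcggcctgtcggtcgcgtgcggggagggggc

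Atp5b held 5 CCAAT boxes, Atp5e 2 and Atp5md 1, whereas Atp5k held none and had the NRF1 letters on both strands in 1 overlapping run. CCAAT occurred in 21 of the 37 promoters (56.8%) and in 34.5% of all 27025 promoters of that length. It was found in 9 of the 10 promoters available for genes that fell with age in 1 of the 4 for genes that rose with age, and in 3 of the 6 for genes that rose with the inhibitor. GCGCATGC was present in 6 of the 37 (Atp5g2, Atp5k, Atp5l, Cox6a1, Cycs and Sdhb; 16.2% against 2.32% of all promoters). CCGGAAGT, bound by GABPA, was present in 3 (Atp5h, Uqcr11 and Uqcrh; 8.11% against 2.93%), and TCAAGGTCA, bound by estrogen-related receptors, in 1 (Atp5g3; 2.70% against 0.366%). AAGATGGC, bound by YY1, occurred in none of the 37 and in 1.59% of all promoters. Both strands were searched, no motif contains another, and a match only describes these letters.

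Complex II oxidizes succinate to fumarate in the citric acid cycle. Of its 4 genes 1 fell and 1 rose with age (25% each, near the 19.8% and 19.6% of all genes), and none passed the test with the inhibitor. Sdhb, the iron-sulfur subunit (chr4:140961203-140979193, plus strand), was at 450.5, 411 and 416 CPM in the young libraries, 371, 347 and 366 in the old and 383, 368 and 381 in the treated ones. It fell by 0.24 ± 0.046 on the log2 scale (adjusted p = 0.000341), and all old libraries lay below all young ones. The treated libraries also lay below the young ones, with a change of -0.17 ± 0.046 (adjusted p = 0.00499), while the change with the inhibitor was 0.06 ± 0.046 (adjusted p = 0.773).

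Sdhd, a membrane anchor of complex II, was at 510.2, 464 and 482 CPM in the young libraries, 549, 529 and 538 in the old and 518, 533 and 532 in the treated ones. It rose by 0.15 ± 0.043 on the log2 scale (adjusted p = 0.00862) with age, without overlap between young and old libraries. Sdhc, the other anchor, was at 225 ± 10.3, 234 ± 5.88 and 243 ± 11.9 CPM, and Sdha at 94.8 ± 2.83, 102 ± 4.54 and 102 ± 5.81 in the same order. Their age changes of 0.06 ± 0.049 and 0.10 ± 0.053 did not pass the test (adjusted p = 0.349 and 0.14).

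Within complex III the nuclear genes split by the role of the subunit. All 4 nuclear core genes rose with age, and 3 of the 5 genes for small accessory subunits fell. The 4 have coding lengths of 822 bases or more and the 5 of 333 or fewer, so role and length cannot be told apart. CYTB, the mitochondrially encoded cytochrome b subunit, fell with age (-0.16 ± 0.041 on the log2 scale, adjusted p = 0.00457). Over the 9 genes 44.4% rose and 33.3% fell, against 19.6% and 19.8% of all genes. Uqcrc2, which encodes a core protein of the matrix side, was at 229, 238 and 236 CPM in the young libraries, 279, 279 and 284 in the old and 281, 275 and 291 in the treated ones. It rose by 0.26 ± 0.042 on the log2 scale (adjusted p = 5.97e-05), and every old and every treated library exceeded every young one. Its partner Uqcrc1 was at 321, 281 and 284 CPM in the young libraries, 368, 339.5 and 359 in the old and 357, 355 and 342 in the treated ones. It rose by 0.27 ± 0.052 on the log2 scale (adjusted p = 0.00036), again with no overlap between young and old. Uqcrfs1, the Rieske iron-sulfur protein that takes electrons from ubiquinol, was at 269, 270.2 and 274 CPM in the young libraries, 316, 314 and 321 in the old and 307, 303 and 322 in the treated ones. This gene rose by 0.23 ± 0.042 on the log2 scale (adjusted p = 0.000238). Cyc1, the cytochrome c1 subunit that hands electrons to cytochrome c, was at 193, 175 and 181 CPM in the young libraries, 211, 201 and 208 in the old and 207, 209.9 and 192 in the treated ones. It rose by 0.17 ± 0.049 on the log2 scale (adjusted p = 0.00892), with no overlap between young and old. With the inhibitor the changes of these 4 genes lay between -0.03 and 0.01 and none passed the test.

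Among the small subunits, Uqcrq (chr11:53427922-53430831, minus strand), which encodes the ubiquinone-binding subunit VII, showed the largest fall. Its level was 666, 589 and 596 CPM in the young libraries, 518, 478 and 525 in the old and 509, 525 and 495 in the treated ones. It fell by 0.28 ± 0.051 on the log2 scale (adjusted p = 0.00016) and its change with the inhibitor was 0.01 ± 0.051. All old and treated libraries lay below all young ones. Uqcr10 was at 492, 420.2 and 436 CPM in the young libraries, 419, 361 and 420.5 in the old and 450.3, 465 and 442 in the treated ones. It fell by 0.17 ± 0.060 on the log2 scale (adjusted p = 0.0304), although the highest old library exceeded the lowest young one. Uqcrh, the hinge protein between cytochromes c1 and c, was at 360.3, 331 and 346 CPM in the young libraries, 316, 287 and 328 in the old and 351, 371 and 341 in the treated ones. It fell by 0.16 ± 0.052 on the log2 scale (adjusted p = 0.021), and here young and old did not overlap. The age calls of Uqcr10 and Uqcrh were lost when old replicate 2 was left out.

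Uqcrb, another small subunit with a ubiquinone-binding role, was the only complex III gene called with the inhibitor. It was at 409.6, 385 and 413 CPM in the young libraries, 382, 357 and 399 in the old and 436, 439.5 and 431 in the treated ones. From old to treated it rose by 0.20 ± 0.046 on the log2 scale (adjusted p = 0.0363), and every treated library lay above every old and young one. Of its 31-base words 34.8% also occur in transcripts of other genes, so its counts may be shared with near-identical copies. Uqcr11 was at 539.5 ± 78.7, 524 ± 51.7 and 579.9 ± 45.1 CPM in young, old and treated libraries and passed no test.

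The sums show the same split per library. The 4 core genes summed to 984 ± 25.6 CPM in young, 1159.7 ± 23.3 in old and 1148 ± 4.05 in treated libraries, and the 5 small genes to 2354 ± 182, 2120.3 ± 151 and 2332 ± 91.1. The small-to-core ratio was 2.53, 2.29 and 2.36 in the young, 1.87, 1.72 and 1.89 in the old and 2.01, 2.12 and 1.96 in the treated libraries. The lowest young ratio was above every old and treated ratio, and the treated ratios were above the old ones. This grouping was made with the gene values known, so the ratio carries no test. Cycs, the electron carrier between complexes III and IV, was at 448, 509.8 and 526 CPM in the young libraries, 467, 515 and 499.7 in the old and 459, 423 and 499 in the treated ones. Its groups overlapped throughout, with an age change of -0.00 ± 0.061 (adjusted p = 0.987) and an inhibitor change of -0.10 ± 0.061 (adjusted p = 0.688), and 29.4% of its words are shared with other genes.

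**Figure D2:**
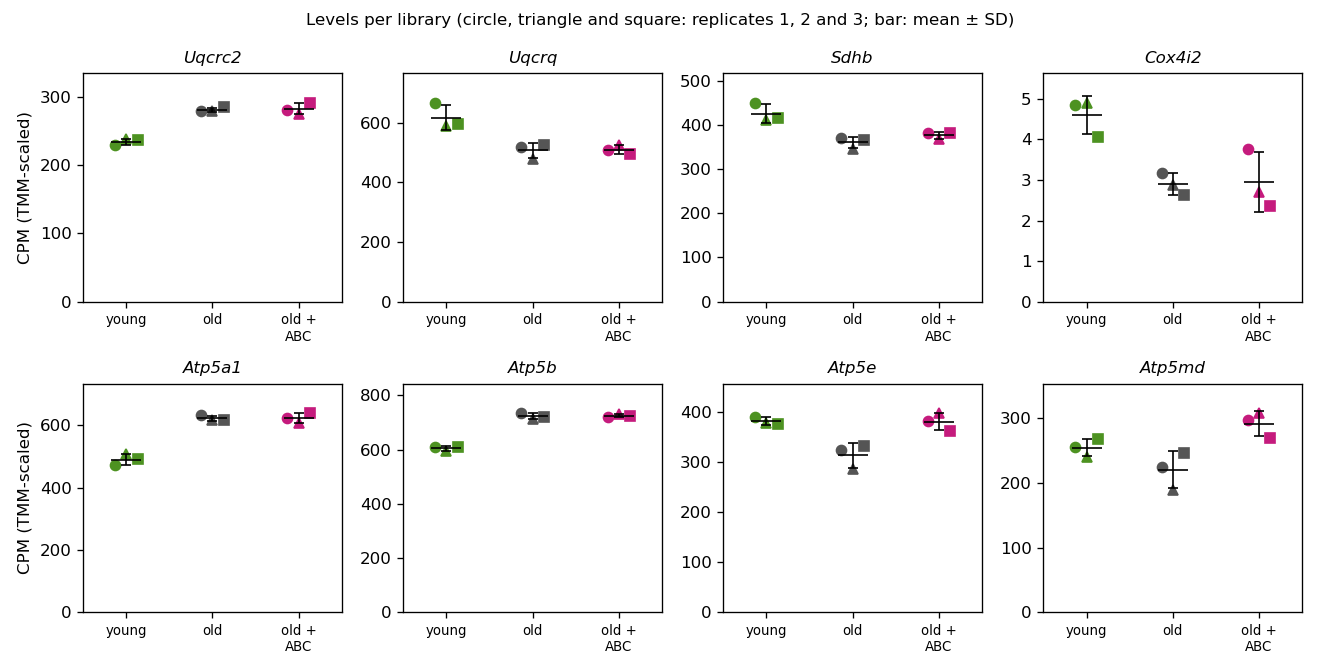
Levels (TMM-scaled CPM, y axes from 0) in each of the 9 libraries for 8 genes of complexes II to V, with the mean ± SD of the 3 libraries of each group. Uqcrc2, Atp5a1 and Atp5b were higher in old and treated than in young libraries, Uqcrq, Sdhb and Cox4i2 were lower in both, and Atp5e and Atp5md were lowest in the old group, with old replicate 2 (triangle) at the bottom.

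Complex IV, cytochrome c oxidase, reduces oxygen to water. Its nuclear subunits surround the catalytic core made from the mitochondrial genome. No complex IV gene rose with age and 5 of the 15 tested fell (33.3%), against 19.6% higher and 19.8% lower over all genes. With the inhibitor 3 rose (20%), against 0.766% of all genes. Cox8a was at 761, 683 and 681 CPM in the young libraries, 648, 563 and 637 in the old and 681, 685 and 653 in the treated ones. It fell by 0.20 ± 0.053 on the log2 scale (adjusted p = 0.00495), and all old libraries were below all young ones. Cox7b (chrX:106015700-106022450, plus strand), on the X chromosome, was at 396, 365 and 385 CPM in the young libraries, 347, 305 and 358 in the old and 415, 412 and 403 in the treated ones. It fell by 0.18 ± 0.052 on the log2 scale (adjusted p = 0.00882) with age and rose by 0.29 ± 0.053 on the log2 scale (adjusted p = 0.00598) with the inhibitor. The old libraries formed the lowest group without overlap, and every treated library exceeded every young one, a difference of 0.10 ± 0.052 that missed the threshold (adjusted p = 0.134). Cox6c was at 489.8, 495 and 523 CPM in the young libraries, 452, 427 and 489 in the old and 518, 530.2 and 520.1 in the treated ones. It fell by 0.14 ± 0.048 on the log2 scale (adjusted p = 0.0241) with age and rose by 0.20 ± 0.048 on the log2 scale (adjusted p = 0.0456) with the inhibitor, and the old group did not overlap the others. The age call of Cox6c was lost without young replicate 2 or 3, old replicate 1 or 2 or treated replicate 1 or 2, and its inhibitor call without any 1 library other than young replicate 1 or old replicate 3, or with library totals, RLE factors or median centring.

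Cox7a2 was at 447, 423 and 444 CPM in the young libraries, 438, 392 and 470.4 in the old and 498, 516 and 496 in the treated ones. Young and old overlapped, with an age change of -0.02 ± 0.053 (adjusted p = 0.833), and the treated libraries were above all others. With the inhibitor it rose by 0.22 ± 0.053 on the log2 scale (adjusted p = 0.0496). This call was lost without any 1 library other than young replicate 1 or old replicate 3, and also with library totals, RLE factors or median centring. The 7 remaining broadly expressed genes, Cox4i1, Cox5a, Cox5b, Cox6a1, Cox6b1, Cox7c and the supercomplex factor gene Cox7a2l, had age changes from -0.10 to 0.08 and inhibitor changes from -0.09 to 0.14, none past the threshold.

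Several complex IV subunits have isoforms best known from lung, heart, skeletal muscle or testis, and these were minor here. Cox4i2, the isoform linked to lung and to oxygen sensing, stood at 6.30 CPM per kilobase in young libraries, against 1458 for Cox4i1. It was at 4.85, 4.90 and 4.05 CPM in the young libraries, 3.18, 2.87 and 2.63 in the old and 3.77, 2.71 and 2.36 in the treated ones. It fell by 0.67 ± 0.18 on the log2 scale (adjusted p = 0.00717), the largest fall among the tested genes that passed, with no overlap between young and old. Cox6b2, the testis isoform of Cox6b1, stood at 95.2 against 1145 CPM per kilobase. It was at 59.5, 48.6 and 49.9 CPM in the young libraries, 40.7, 37.3 and 45.4 in the old and 42.2, 45.1 and 45.3 in the treated ones. It fell by 0.36 ± 0.079 on the log2 scale (adjusted p = 0.00114), and again the old libraries lay below the young ones.

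The muscle isoform Cox6a2 stood at 4.92 CPM per kilobase in young libraries, against 955 for Cox6a1. The muscle isoform Cox7a1 was at 2.69, against 665 for Cox7a2 and 179 for Cox7a2l. Neither muscle isoform passed a test. Cox8b was listed at 0 in all young libraries and Cox8c reached 0.709, whereas Cox8a stood at 1288.

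ATP synthase held the largest opposed changes. The genes for the alpha and beta subunits of F1, which form its catalytic sites, were the only complex V genes to rise with age, while 5 genes for smaller subunits fell. Of the 16 tested genes 12.5% thus rose and 31.2% fell, against 19.6% and 19.8% of all genes. With the inhibitor 31.2% rose, against 0.766%. Atp5a1, the alpha subunit, was at 471, 507 and 492 CPM in the young libraries, 632, 618 and 617 in the old and 623, 608 and 639 in the treated ones. It rose by 0.34 ± 0.041 on the log2 scale (adjusted p = 1.41e-06), or 26.9%, the largest rise with age among the 45 genes that passed the test. Atp5b, the beta subunit, was at 609, 594 and 609.8 CPM in the young libraries, 734, 713 and 721 in the old and 719.8, 732 and 723 in the treated ones. It rose by 0.26 ± 0.038 on the log2 scale (adjusted p = 1.89e-05). For both genes every old and treated library lay above every young one, and the inhibitor changes were 0.00 ± 0.041 and 0.00 ± 0.038.

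The epsilon subunit gene Atp5e (chr2:174461072-174464105, minus strand), a small part of the F1 central stalk, moved the other way. It was at 390.4, 377 and 375 CPM in the young libraries, 323, 285 and 331 in the old and 382, 397 and 362 in the treated ones. It fell by 0.28 ± 0.052 on the log2 scale (adjusted p = 0.000235) with age and rose by 0.28 ± 0.053 on the log2 scale (adjusted p = 0.00656) with the inhibitor. The old libraries lay below all others, the treated range covered the young one, and the treated to young change was 0.00 ± 0.052 (adjusted p = 0.978).

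A trio of genes for small membrane subunits followed the same course. Atp5k, subunit e, which helps ATP synthase pair into dimers, was at 229, 226 and 235 CPM in the young libraries, 201, 171 and 221 in the old and 262, 267 and 240.1 in the treated ones. It fell by 0.22 ± 0.066 on the log2 scale (adjusted p = 0.0124) with age and rose by 0.37 ± 0.067 on the log2 scale (adjusted p = 0.00498) with the inhibitor. The old libraries were lowest and the treated ones highest, without overlap. Atp5md, which encodes a subunit also known as DAPIT, was at 256, 241 and 267 CPM in the young libraries, 225, 189 and 247 in the old and 298, 308 and 270.4 in the treated ones. It fell by 0.21 ± 0.071 on the log2 scale (adjusted p = 0.0239) with age, where young and old overlapped, and rose by 0.41 ± 0.071 on the log2 scale (adjusted p = 0.00453) with the inhibitor, where all treated libraries exceeded all others. This rise of 32.6% was the largest with the inhibitor among the 45 genes. Atp5mpl, which encodes a small proteolipid, was at 291, 279 and 304 CPM in the young libraries, 248, 219 and 272 in the old and 299, 329.7 and 288 in the treated ones. It fell by 0.24 ± 0.064 on the log2 scale (adjusted p = 0.00561) with age and rose by 0.31 ± 0.065 on the log2 scale (adjusted p = 0.0164) with the inhibitor, and only the young and treated libraries overlapped.

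In the peripheral stalk, which holds F1 still, Atp5h and Atp5j were called. Atp5h, subunit d, was at 559 ± 14.8, 505 ± 30.1 and 548 ± 6.18 CPM and fell by 0.15 ± 0.045 on the log2 scale (adjusted p = 0.0133) with age. Atp5j, coupling factor 6, was at 599, 548 and 603 CPM in the young libraries, 553, 504 and 586 in the old and 651, 687 and 622 in the treated ones. It rose by 0.25 ± 0.054 on the log2 scale (adjusted p = 0.0192) with the inhibitor, with the treated libraries above all others, and its age change was -0.09 ± 0.054 (adjusted p = 0.192). Atp5o, the subunit that ties the stalk to F1, was at 543 ± 15.1, 574 ± 48.7 and 623 ± 7.79 CPM, and Atp5pb, subunit b, at 631 ± 14.6, 627 ± 2.19 and 641 ± 8.36. For Atp5h 25.4% and for Atp5o 49.6% of the words occur in transcripts of other genes.

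The ring that turns in the membrane is made from identical mature proteins of 3 genes. Atp5g1 stood at 783 ± 62.0, 749 ± 40.8 and 814 ± 47.5 CPM and Atp5g3 at 348 ± 4.06, 349 ± 18.9 and 383 ± 0.542. Per kilobase in young libraries Atp5g3 (487) was above Atp5g1 (168), the reverse of the order in CPM. This order rests on an annotated length of 4660 bases for Atp5g1 against 714 for Atp5g3, although their coding lengths are 408 and 423 bases. Which gene had more transcripts is therefore not settled here. Atp5g2 is listed at 0 in every library and shares 40.2% of its words with other genes, so that the counting could have dropped its reads, and nothing is read from its value. The remaining complex V genes, Atp5c1 (gamma), Atp5d (delta), Atp5j2 (subunit f), Atp5l (subunit g) and Atp5pb, passed no test.

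Within ATP synthase, Atp5a1 and Atp5b together made up 1095 ± 12.2 CPM in young, 1345 ± 18.5 in old and 1348 ± 11.9 in treated libraries, and Atp5e, Atp5k, Atp5md and Atp5mpl together 1157 ± 30.4, 978 ± 104 and 1234 ± 70.5. The ratio of the second sum to the first was 1.08, 1.02 and 1.07 in the young libraries, 0.730, 0.650 and 0.800 in the old and 0.924, 0.971 and 0.852 in the treated ones. No group overlapped another, and the treated libraries lay between old and young. These genes were combined after their values had been seen, so the ratio is a description. The second sum holds the complex V genes called both lower with age and higher with the inhibitor. It leaves out other small subunit genes such as Atp5j, Atp5j2 and Atp5l, whose age changes did not pass the test.

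**Figure D3:**
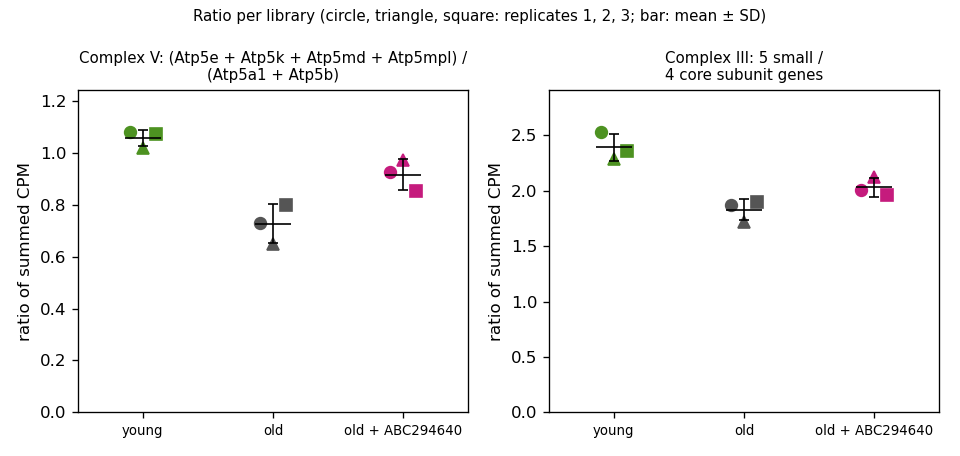
Ratio of summed CPM in each library, with the mean ± SD of 3 libraries. Left, complex V: Atp5e, Atp5k, Atp5md and Atp5mpl, picked as called both lower with age and higher with the inhibitor, over Atp5a1 and Atp5b. Right, complex III: the 5 small over the 4 nuclear core subunit genes. Both groupings were made with the values known. In both panels the young libraries are highest, the old lowest and the treated ones between, without overlap between groups.

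Within the 45 genes the direction of change went with coding length. Genes that rose with age had a median coding length of 1359 bases, those that fell 234 bases, and those that rose with the inhibitor 228 bases. Across the 45 genes, coding length had a Spearman rho of 0.625 with the age change and -0.663 with the inhibitor change. Over all 13938 tested genes with a coding length rho was -0.121 and -0.047. Genes share libraries and depth, and the age and inhibitor changes share the old libraries, so these are descriptions. Of the 24 genes with a coding length up to 360 bases, 11 fell and none rose with age, against 26.1% and 21.7% of all 644 such genes. With the inhibitor 9 of the 24 rose, against 8.54% of such genes in the whole table. Of the 11157 genes with over 720 coding bases 0.224% rose. By transcript length, the whole table also held a shift among short genes. Of all 684 tested genes with transcripts up to 800 bases, 32.7% fell and 18.6% rose with age (median log2 change -0.109). With the inhibitor 9.06% of them rose and 2.34% fell (median 0.11). Of the 23 such genes in the set, 11 fell and none rose with age (median -0.141). With the inhibitor 7 of the 23 rose and none fell (median 0.147).

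After removal of the trend of the change on transcript length over all genes, an alternative chosen after seeing the data, 6 of 45 genes fell with age (Sdhb, Uqcrq, Cox4i2, Cox6b2, Cox7b and Atp5e) and 3 rose with the inhibitor (Cox7b, Atp5j and Atp5md). The genes that rose with age then numbered 10. The part of transcript length in the results was not tested beyond this.

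**Figure D4:**
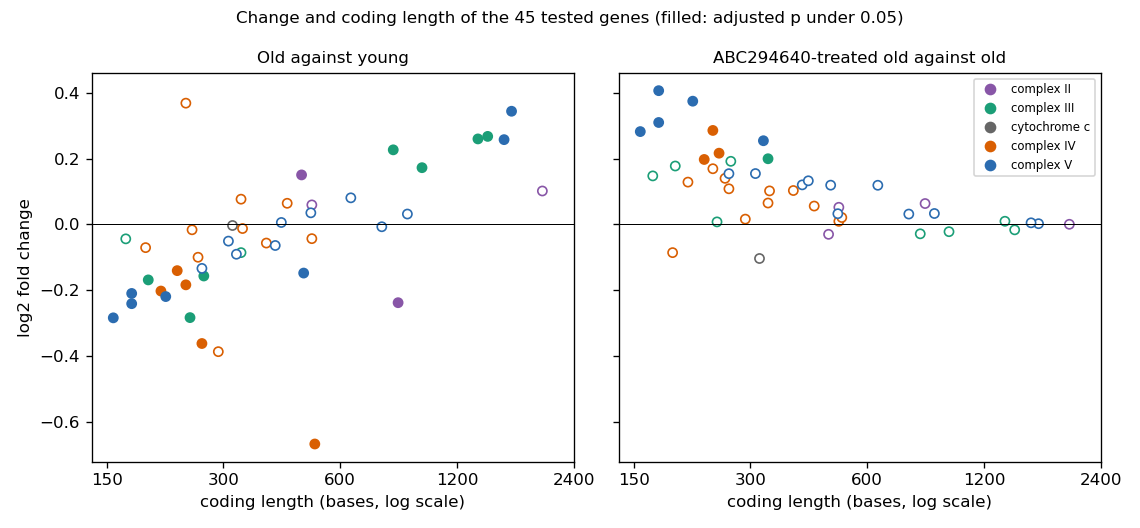
Log2 fold change (y axis) against coding length in bases (x axis, log scale) for the 45 tested genes, coloured by complex, for old against young and for treated old against old libraries. Filled points passed an adjusted p under 0.05: with age the rises lie at 477 to 1659 bases and the falls at 156 to 846, and with the inhibitor all rises lie at 156 to 333 bases.

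Single libraries weighed on these counts. Old replicate 2 was the lowest of the old group in 40 of the 45 genes, against 36.1% of all genes, and treated replicate 2 was the highest of its group in 27, against 34.9%. Treated replicate 3 was the lowest of its group in 28 (33.5% of all genes). Young replicate 2 was the lowest of its group in 29 (32.6%) and young replicate 1 the highest in 26 (36.8%). Without old replicate 2 the genes that fell with age numbered 6 (Sdhb, Uqcrq, Cox4i2, Cox6b2, Cox8a and Atp5e), and without young replicate 3 they numbered 9. The genes that rose with the inhibitor numbered 4 without old replicate 1, 4 without old replicate 2, 6 without young replicate 3, 6 without treated replicate 3, 2 without treated replicate 1 and 0 without treated replicate 2. In that last fit 17 genes were called higher in the whole table, in place of 109. Each of the 9 inhibitor calls was lost without at least 1 library, whereas all 7 rises with age held without any single library.

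Treated old libraries were also set against young ones. Of the 45 genes 14 were higher and 4 lower in the treated libraries, against 19.1% and 18.5% of all genes. The 4 complex III core genes, Sdhd, Atp5a1 and Atp5b were higher than in young, at changes from 0.12 (Sdhd) to 0.35 (Atp5a1). Sdhb, Uqcrq, Cox4i2 and Cox6b2 were lower, at changes from -0.65 (Cox4i2) to -0.17 (Sdhb). The 7 other higher genes were Cox7a2, Cox5a, Cox7a2l, Atp5o, Atp5md, Atp5j and Atp5g3. Cox7a2 rose by 0.20 ± 0.053 on the log2 scale (adjusted p = 0.0056) and Atp5o by 0.20 ± 0.050 (adjusted p = 0.00379). Cox7a2l was at 190.3, 193 and 196 CPM in the young libraries, 206, 200.3 and 204 in the old and 209, 220.1 and 209 in the treated ones, and the treated libraries lay above all others, a change of 0.14 ± 0.043 from young (adjusted p = 0.0137). Cox5a was at 631, 612 and 626 CPM in the young libraries, 666, 625 and 663 in the old and 688, 674 and 669 in the treated ones, a change of 0.12 ± 0.040 (adjusted p = 0.024) with no overlap between young and treated.

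This count of higher genes moved with the scaling. With library totals in place of TMM the median over all genes shifted to -0.12 from -0.02, and 4 of the 45 genes were higher and 9 lower, with a median of -0.01 in place of 0.09 over the 45 genes. Atp5a1, Atp5b, Uqcrc1 and Uqcrc2 were the 4 that stayed higher.

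Other genes of the same pathway were read from lists of known function. Of the 6 subunits of complexes III to V encoded in mitochondrial DNA, 2 fell with age and 1 rose with the inhibitor, against 19.8% lower and 0.766% higher over all genes. ATP8, a short subunit gene of ATP synthase, was at 454, 514 and 539 CPM in the young libraries, 383, 377 and 441 in the old and 551, 567 and 532 in the treated ones. It fell by 0.33 ± 0.061 on the log2 scale (adjusted p = 0.000249) with age and rose by 0.46 ± 0.061 on the log2 scale (adjusted p = 0.000402) with the inhibitor, and the old libraries lay below all others. ATP8 overlaps ATP6 in the mitochondrial genome, so reads in the overlap cannot be told apart. CYTB, the cytochrome b subunit of complex III, fell by 0.16 ± 0.041 on the log2 scale (adjusted p = 0.00457), from 7438 ± 365 to 6669.9 ± 154 CPM.

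Of 36 tested assembly factors, 4 rose (11.1%) and 12 fell (33.3%) with age, against 19.6% and 19.8% of all genes, and none passed with the inhibitor. Among those of smallest p, Lyrm7, which carries the Rieske protein Uqcrfs1 into complex III, was at 26.8, 25.7 and 30.4 CPM in the young libraries, 13.9, 10.9 and 12.5 in the old and 11.8, 12.9 and 11.1 in the treated ones. It fell by 1.16 ± 0.098 on the log2 scale (adjusted p = 8.73e-09), with all old and treated libraries below all young ones. Cmc2 and Uqcc2, factors for complexes IV and III, fell by 0.36 ± 0.051 (adjusted p = 1.18e-05) and 0.32 ± 0.060 (adjusted p = 0.000274) on the log2 scale. Cox18, which inserts a mitochondrially made complex IV subunit into the membrane, rose by 0.34 ± 0.064 on the log2 scale (adjusted p = 0.00032). Hccs, which attaches haem to cytochromes c and c1, rose by 0.37 ± 0.066 on the log2 scale (adjusted p = 0.000152). Of 11 regulators of respiratory genes 2 rose (18.2%) and 1 fell (9.09%) with age, the first share close to that of all genes (19.6%) and the second below it (19.8%). Those higher were Gabpa (0.35 ± 0.089, adjusted p = 0.00429) and Yy1 (0.19 ± 0.066, adjusted p = 0.0312), and the coactivator gene Ppargc1b fell by 0.62 ± 0.17 (adjusted p = 0.00647).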

How the data were processed

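Each library is low-input RNA-seq of sorted mouse cells. The deposited table holds expected counts per gene, made by the authors. Per the submitters' processing notes, the tools were STAR 2.6.1d, Trim Galore 0.6.2, edgeR 3.24.3 and HTSeq 0.10.0 and the build mm10, with no role given. Only 56.0% of non-zero values were whole, and neither the step behind the fractions nor the use of strand is stated in the sources used here. Values were rounded and tested with edgeR 4.0.16 (R 4.3.3): TMM, its default filter (14227 genes kept), 1 quasi-likelihood fit of all 9 libraries by group, and Benjamini-Hochberg adjustment over all 14227. CPM use the total of the kept genes times the TMM factor of each library. The library totals before filter and scaling were 16663445 to 23254115 counts. The common biological coefficient of variation was 0.0583. Counts come from amplified DNA without molecular identifiers. No 2 libraries were duplicates (chi-square per degree of freedom 2.23 or more). All table columns were used.

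Genes, lists and alternatives were chosen with earlier results of these data known. The text gives full values for complex II, Cycs and Cyc1, up to 4 called genes per direction and comparison in complexes III to V, isoform sets, and genes called in both main comparisons. Transcript and coding lengths come from GENCODE M21 (GRCm38). Shared words are 31-base stretches found in transcripts of other genes. Alternatives were RLE factors, library totals, median centring, no filter, a filter of 5 CPM in 3 libraries, unrounded values, a 1.2-fold threshold, the 2 groups alone, the replicate block, leaving out libraries, DESeq2 1.42.0, leaving out genes with at least 20% shared words, and removal of length and GC trends. The tests were checked on simulated counts. Python 3.11.15 was used for other steps.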

Additional observations from a re-analysis of the deposited data

How the results depend on the processing

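The number of genes called among the 45 depended on the setting. With a 1.2-fold threshold, the 7 rises and 14 falls with age became 0 and 1, the 9 rises with the inhibitor became 0, and the 14 higher and 4 lower genes in treated old against young became 1 and 0. With the length trend removed, falls with age became 6 and rises with the inhibitor 3. Cox6c (0.0068) and Uqcr10 (0.0021) then changed sign with age. Leaving out young replicate 1 and old replicate 2 together gave 15 rises and 7 falls with age and 25 higher genes in treated against young, and Cox5b (0.12), Cox6a1 (0.16) and Uqcr11 (0.17) changed sign with age. Both alternatives, like GC trend removal and median centring, were chosen after seeing the data. Library totals gave 5 rises and 21 falls with age, 7 rises with the inhibitor, and 4 higher and 9 lower genes in treated against young. In that last comparison, no filter gave 23 higher, the stricter filter 7 and GC trend removal 22.

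Leaving out 1 library at a time gave 7 to 9 rises and 6 to 14 falls with age, 0 to 10 rises with the inhibitor, and 9 to 21 higher and 3 to 5 lower genes in treated against young. With the replicate block the counts were 7 and 14, 9 and 0, and 15 and 5. Same-numbered libraries of different groups showed no strong shared deviation (r from -0.0808 to 0.132, against -0.0964 to 0.0723 for other-numbered pairs). With 3 libraries a group this cannot show whether the numbers pair the samples. DESeq2 gave 7 and 10, 10 and 0, and 17 and 4. The cause of these shifts was not tested. Depth limits Cox5b-ps, Cox7b2, Cox8b and Cox8c, none above 0.490 CPM, for which no change was tested.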

Other observations

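Complex I, whose nuclear genes lie outside the set described above, is given for comparison. Its entries were taken by symbol and include Ndufa12-ps, whose symbol marks a pseudogene and which passed no test. They also include Ndufb4c, which fell with age and shares 100% of its words with other genes. Of the 38 tested entries, 5 rose and 12 fell with age (all genes 19.6% and 19.8%), with a median log2 change of -0.09. With the inhibitor 5 rose and none fell (all genes 0.766% and 0.429%), with a median of 0.11. Of those that rose with age, Ndufs1 (adjusted p = 0.000151, change 0.28 ± 0.050), encoding the largest iron-sulfur subunit, and Ndufa9 (adjusted p = 0.000128, change 0.28 ± 0.050) did not pass with the inhibitor, whereas Ndufv3 rose in both comparisons, by 0.19 ± 0.057 (adjusted p = 0.0109) and 0.24 ± 0.057 (adjusted p = 0.0438). Ndufa4, a small protein also counted with complex IV, was at 700.0, 652 and 715 CPM in the young libraries, 629, 553 and 651 in the old and 760.5, 805 and 715 in the treated ones. It fell by 0.17 ± 0.056 on the log2 scale (adjusted p = 0.0193) with age and rose by 0.31 ± 0.057 on the log2 scale (adjusted p = 0.00516) with the inhibitor. The old libraries are shared by these comparisons.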
